A study of Homo sapiens with 9 samples.

Results

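The comparison described here set 3 libraries of differentiated Caco-2 cells kept for 24 h with 10 µM carmine against 3 libraries kept for 24 h with 20 µM carminic acid, over all genes. These were 6 of the 9 libraries of the series, and the other 3 came from cells in regular medium for the same time (control). All cells were labelled wild type (WT), and they were differentiated in 6-well plates in serum-containing medium before treatment. Caco-2 is a human colon carcinoma line, so every library came from 1 established line. The labels do not say whether the samples A, B and C of a group were grown separately, so p-values reflect a spread between samples that may be only technical. For the gene tests that spread was estimated from all 9 libraries, control included.

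Carminic acid is a red anthraquinone glycoside made by cochineal insects, and carmine is the pigment obtained when aluminium, usually together with calcium, binds it. Both are used to colour foods, so that intestinal enterocytes, whose model Caco-2 cells are after differentiation, meet them on their luminal side. The comparison asked whether the complexed and the free dye left different transcripts behind. Since the stated concentrations also differed, at 10 µM and 20 µM, the metal and the dose cannot be told apart.

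The libraries held 54871018 to 57581301 counts, and 16017 genes had enough counts to be tested. Levels below are in CPM, the counts of a gene relative to all counts of its library after scaling, and a log2 fold change above 0 means a higher level with carmine than with carminic acid. All 10 enterocyte markers, such as the brush border enzymes SI and ALPI, were above 1 CPM, with summed levels of 4330 to 4540 CPM with carmine, 4360 to 4630 with carminic acid and 4230 to 4470 in control. The Paneth cell gene DEFA5 and the enteroendocrine gene NEUROD1 were at 0 in all libraries, but other markers of these and further cell types were present. A mean above 1 CPM was found for 1 of 3 Paneth, 1 of 3 enteroendocrine, 2 of 4 goblet and 2 of 3 stem cell markers. The same held for 3 of 3 hepatocyte markers and 4 of 5 stromal, endothelial and immune markers. In bulk RNA fewer cells of a type and less RNA per cell cannot be told apart. Carmine library C stood apart: along the main axis of variation (20.9% of the variance) it lay at 34.45 and the other 8 libraries between -19.35 and 14.49. Correlations of log2 levels were 0.9875 to 0.9902 among carmine libraries, 0.9929 to 0.9932 among carminic acid libraries and 0.9894 to 0.9918 between the groups, so carmine libraries were no closer to each other than to the carminic acid libraries.

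CNIH1 was the 1 gene that passed an adjusted p of 0.05, and it was higher with carmine. CNIH1 (Gene ID 10175, positions 54423561 to 54441374 of chromosome 14, GRCh38.p14) encodes a cornichon protein, a receptor that loads cargo into vesicles leaving the endoplasmic reticulum. Its level was 89.6, 87.5 and 88.8 CPM in carmine libraries A, B and C, and 60.0, 58.1 and 64.2 CPM in carminic acid libraries A, B and C. Control libraries had 65.1, 69.8 and 71.7 CPM, so every carmine library lay above all 6 others and every carminic acid library below all control libraries. The mean of 88.6 ± 1.10 CPM with carmine was 1.46 times that of 60.8 ± 3.09 CPM with carminic acid (SD, n = 3 each). The log2 fold change was 0.54 (SE 0.0714, 95% interval 0.39 to 0.70, edgeR quasi-likelihood test with Benjamini-Hochberg adjustment, adjusted p = 0.0312). Against the shared control libraries the log2 differences were 0.36 with carmine and -0.18 with carminic acid.

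CNIH1 kept its sign in all 21 alternative analyses, with log2 fold changes of 0.44 to 0.59, and its call in 12 of them. The call ended without carminic acid library A (adjusted p = 0.490), without carminic acid library B (0.151), without carmine library B (0.209), and without control library A (0.0618), B (0.137) or C (0.0824), all by edgeR. It also ended with the replicate letter as a block (0.0928), with only the 6 compared libraries (0.101) and with non-robust estimation (0.0506). In the edgeR test with all 9 libraries 1 gene of 16017, 0.00624%, is the whole background of called genes, and all other values below are given for genes that did not pass it. DESeq2 called 70 genes higher (0.437%) and 7 lower (0.0437%) from the same counts, and limma-voom called 12 genes (0.0749%), 11 of them higher. The count of called genes in edgeR was 685 of 16266 (4.21%) when carmine library C was left out, 3 without carmine library A, 3 without carminic acid library C and 0 without carmine library B, without carminic acid library A or without any 1 control library. Leaving out carminic acid library B left 1 called gene, which was not CNIH1.

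**Figure D1:**
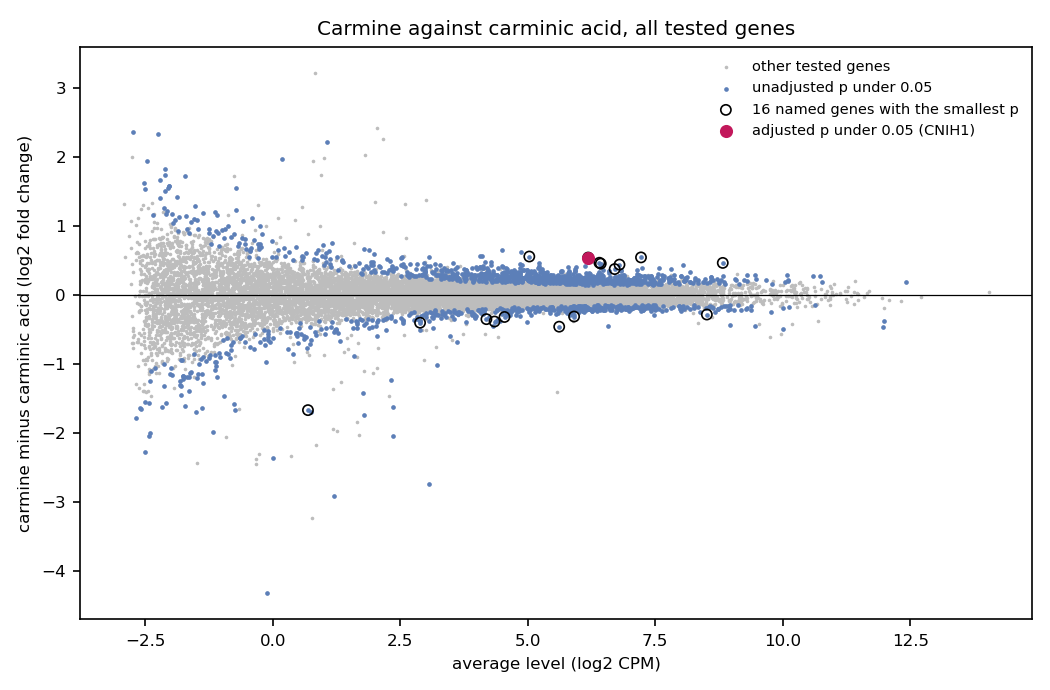
Log2 fold change of carmine against carminic acid (y axis) against the average level in log2 CPM (x axis) for 16017 tested genes, 1 point per gene. CNIH1 is the filled red point, open circles mark the 16 genes with the smallest p (8 in each direction), and blue points are the 1426 genes with an unadjusted p under 0.05.

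The other 7 genes with the smallest p among higher genes had log2 fold changes of 0.38 to 0.56. The rule that named them, and the 8 lower genes below, took only genes whose carmine and carminic acid libraries did not overlap. NDUFB5 (chromosome 3, positions 179604794 to 179627647), an accessory subunit of respiratory complex I, had 169.5, 186 and 207 CPM with carmine and 122, 132 and 132 CPM with carminic acid. Control libraries had 125, 133 and 136 CPM, close to carminic acid. Its log2 fold change was 0.55 (SE 0.0799, edgeR adjusted p = 0.0550). NDUFA5, a further complex I subunit, had 105, 106 and 92.9 CPM with carmine and 67.7, 72.6 and 81.1 CPM with carminic acid (0.46, adjusted p = 0.185).

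SELENOT (chromosome 3, positions 150603321 to 150630436) encodes a selenoprotein of the endoplasmic reticulum membrane with a thioredoxin-like fold. Its levels were 94.9, 101 and 105 CPM with carmine, 73.3, 66.5 and 77.5 CPM with carminic acid and 79.8, 80.5 and 84.9 CPM in control, so that control lay between the dyes (0.47, edgeR adjusted p = 0.113). CCNC, which encodes cyclin C of the Mediator kinase module, had the same order, with 128, 137 and 122.8 CPM with carmine, 95.5, 89.6 and 101 CPM with carminic acid and 103, 111 and 115 CPM in control (0.44, adjusted p = 0.123). RFK, the riboflavin kinase that makes the flavin cofactor FMN, had 38.4, 44.5 and 37.9 CPM with carmine against 25.1, 27.7 and 29.2 CPM (0.56, adjusted p = 0.158). The carmine libraries of SELENOT, CCNC and RFK all lay above the control libraries.

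ZFAS1 is a noncoding transcript that hosts small nucleolar RNAs in its introns. It had 508, 599 and 539 CPM with carmine against 369, 404 and 417 CPM with carminic acid, and 376, 416 and 454 CPM in control (0.47, edgeR adjusted p = 0.181). NDFIP2, an adaptor of NEDD4-type ubiquitin ligases, had 114, 120.2 and 123.3 CPM against 89.0, 88.7 and 97.5 CPM (0.38, adjusted p = 0.185). All 8 genes, CNIH1 included, passed in DESeq2, with adjusted p from 3.46e-09 for CNIH1 to 0.0025 for NDUFA5.

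**Figure D2:**
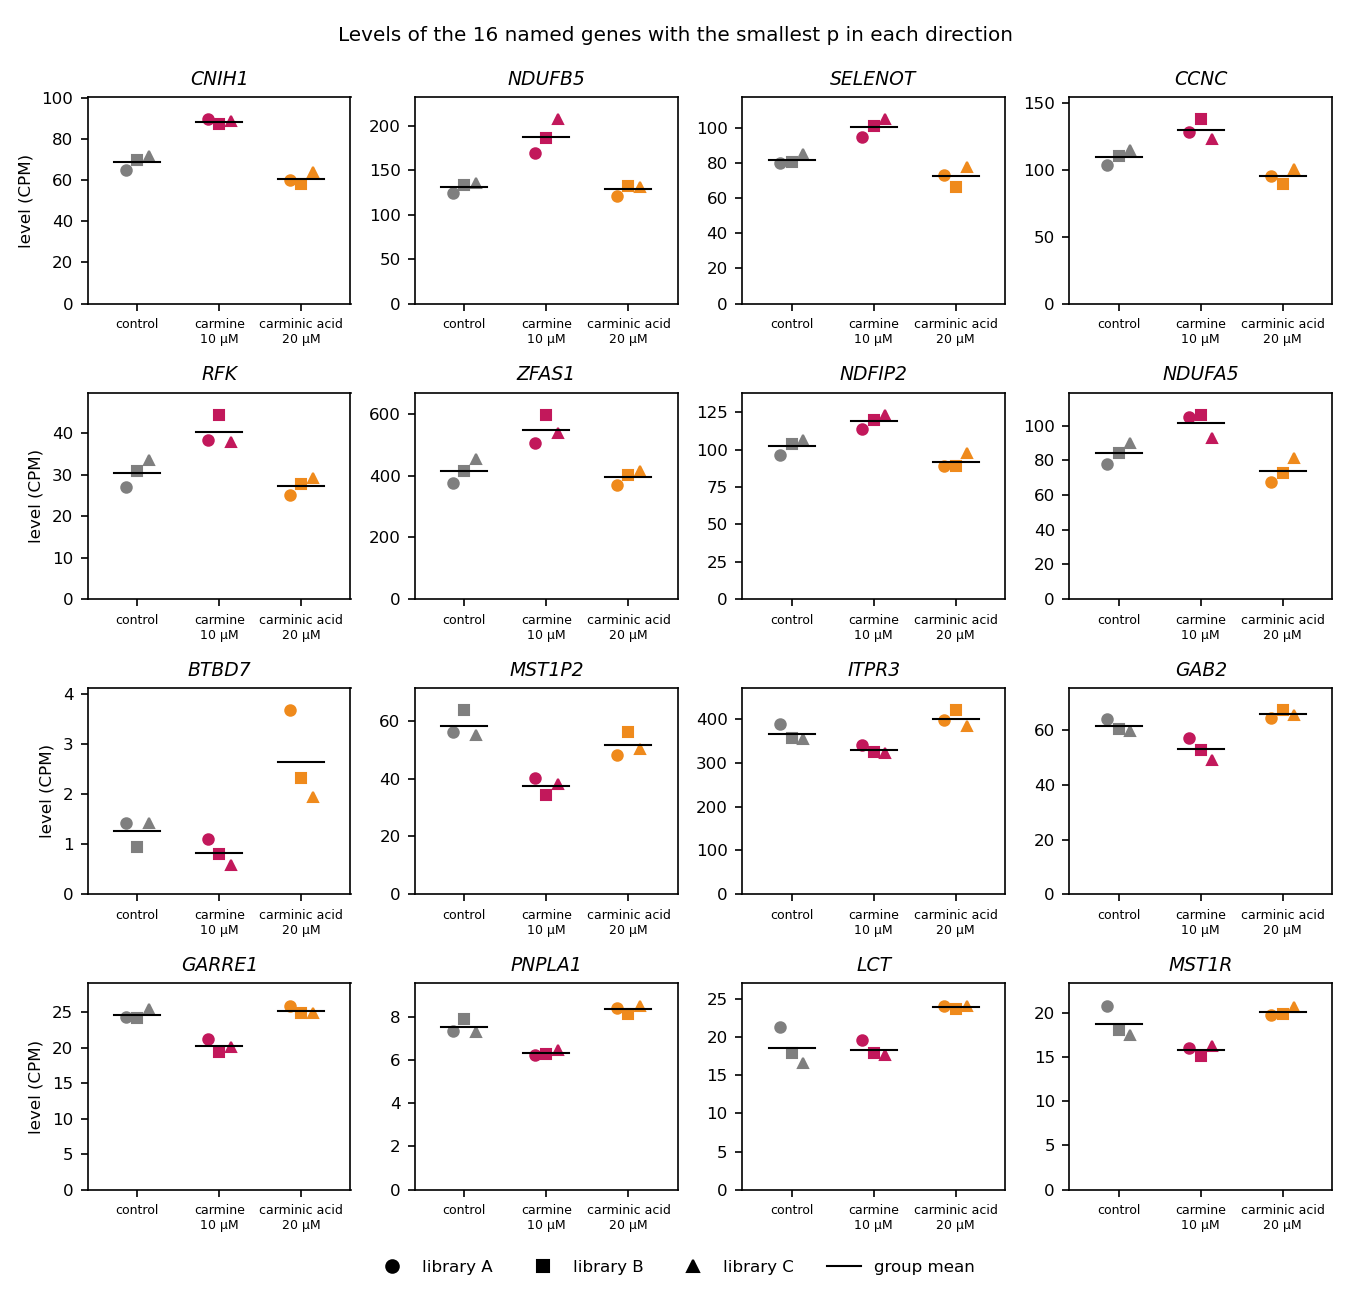
Levels in CPM (y axis, from 0) of the 8 higher genes (upper rows) and the 8 lower genes (lower rows) with the smallest p, per library in control, 10 µM carmine and 20 µM carminic acid. Points are libraries A, B and C, lines are means of 3 libraries, and the genes were chosen among those whose carmine and carminic acid points do not overlap.

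Among lower genes the smallest p belonged to BTBD7 (chromosome 14, positions 93237550 to 93333036), a BTB domain protein linked to epithelial branching. It was a low transcript, with 1.10, 0.801 and 0.583 CPM with carmine, 3.68, 2.32 and 1.94 CPM with carminic acid and 1.43, 0.936 and 1.42 CPM in control. The log2 fold change was -1.67 with an SE of 0.287 (edgeR adjusted p = 0.123). The carminic acid libraries lay above all others. The reference lists processed copies of BTBD7 elsewhere in the genome, and the handling of reads with several matches is not stated, so this level is uncertain.

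The other 7 lower genes had log2 fold changes of -0.28 to -0.46. MST1P2 is a transcribed pseudogene related to MST1, and its reads may belong in part to relatives. It had 40.2, 34.2 and 38.0 CPM with carmine, 48.0, 56.2 and 50.4 CPM with carminic acid and 56.1, 63.6 and 55.1 CPM in control (edgeR adjusted p = 0.209). LCT, the brush border enzyme lactase, had 19.6, 17.9 and 17.7 CPM with carmine and 24.2, 23.7 and 24.2 CPM with carminic acid (-0.38, 95% interval -0.59 to -0.18, adjusted p = 0.300). Its control libraries, at 21.3, 17.97 and 16.7 CPM, overlapped with carmine and lay below carminic acid. ITPR3, a receptor for inositol trisphosphate that releases calcium from the endoplasmic reticulum, had 340.4, 325 and 322 CPM against 398, 420.2 and 384 CPM (-0.28, adjusted p = 0.290).

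The remaining 4 were GAB2, a docking protein of receptor tyrosine kinases, GARRE1, an effector of Rac GTPases, PNPLA1, an enzyme of acylceramide synthesis in skin, and MST1R, the receptor for macrophage-stimulating protein. MST1R had 15.97, 15.1 and 16.3 CPM with carmine and 19.8, 19.9 and 20.7 CPM with carminic acid (-0.35, edgeR adjusted p = 0.326), with 20.8, 18.1 and 17.4 CPM in control. PNPLA1 had 6.20, 6.25 and 6.47 CPM against 8.39, 8.11 and 8.51 CPM (-0.40, adjusted p = 0.300). Of the 8 lower genes 6 passed in DESeq2. BTBD7 was given no adjusted p there, and MST1R had an adjusted p of 0.0517.

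The promoters of 11 of these 16 genes were in the RefSeq table (GRCh38.p14) used here. The 250 bases before the start of SELENOT and BTBD7, a gene from either end of the comparison, and of CYP1A1, the reference target of the aryl hydrocarbon receptor, are shown to place short motifs that bear on dye, metal and oxidant responses. Capitals mark matches on either strand to GCGTG (aryl hydrocarbon receptor core), TGCGCNC (metal response element), the NRF1 site, CACGTG (E-box), CCGGAAG (ETS site) and TGACNNNGC (antioxidant response element), and neighbouring matches can overlap.
SELENOT (chr3:150603071-150603320, plus strand): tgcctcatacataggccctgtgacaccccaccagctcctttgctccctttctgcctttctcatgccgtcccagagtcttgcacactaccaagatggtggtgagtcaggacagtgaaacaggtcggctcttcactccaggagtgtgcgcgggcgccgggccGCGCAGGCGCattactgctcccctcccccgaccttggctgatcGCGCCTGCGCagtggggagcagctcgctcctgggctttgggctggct
BTBD7 (chr14:93333037-93333286, minus strand): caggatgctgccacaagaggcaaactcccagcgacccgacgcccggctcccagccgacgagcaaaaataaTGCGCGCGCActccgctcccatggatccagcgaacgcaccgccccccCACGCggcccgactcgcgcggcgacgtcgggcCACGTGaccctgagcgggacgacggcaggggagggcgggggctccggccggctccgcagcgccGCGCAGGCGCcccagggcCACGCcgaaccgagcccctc
CYP1A1 (chr15:74725529-74725778, minus strand): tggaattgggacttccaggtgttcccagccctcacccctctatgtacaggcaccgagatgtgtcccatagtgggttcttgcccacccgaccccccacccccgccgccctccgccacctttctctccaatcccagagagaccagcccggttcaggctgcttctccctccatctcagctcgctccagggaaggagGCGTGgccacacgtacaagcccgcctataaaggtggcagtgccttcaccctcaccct
SELENOT held 2 NRF1 matches and no match to the other letters searched, which for the metal response element were TGCGCNC alone. BTBD7 held 2 aryl hydrocarbon receptor cores, 2 overlapping metal response elements, 1 NRF1 match and 1 E-box, and CYP1A1 held 1 aryl hydrocarbon receptor core. The GCGTG core was present in 43.6% of the 12370 tested genes with a promoter, the metal response element in 25.1%, the NRF1 site in 9.5%, the E-box in 8.6%, the ETS site in 14.5% and the antioxidant response element in 12.2%. Among the 16 genes the GCGTG core and the metal response element each matched RFK and ZFAS1, of 6 higher genes with a promoter, and BTBD7 and GAB2, of 5 lower ones. The NRF1 site matched only SELENOT and BTBD7, whose promoters are shown. The E-box matched BTBD7 alone, the ETS site MST1R alone, and the antioxidant response element none of them. These matches describe letters in a window and not binding.

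Beyond the called gene, an unadjusted p under 0.05 was found for 905 genes that were higher with carmine (5.65%) and 521 that were lower (3.25%), together 1426 of 16017 (8.9%). Groups did not overlap for 2098 genes (13.1%), 1135 of them higher (7.09%) and 963 lower (6.01%). The 905 higher genes lay above control with carmine (median log2 difference 0.16) and below it with carminic acid (-0.11). For the 521 lower genes these medians were -0.20 and 0.07. These genes were chosen by p and sign from the same carmine and carminic acid libraries. That choice by itself favours medians on opposite sides of control. Both comparisons also share the control libraries. Transcripts of the higher genes had a lower GC content, with a median of 42.64%, than the 50.38% of all genes tested, and those of the lower genes a higher one, 54.63%.

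GC content also moved with single libraries. Across 15453 genes, the level in a library relative to the mean of all 9 had Spearman coefficients with GC content of -0.419, -0.43 and 0.498 in carmine libraries A, B and C. In carminic acid libraries A, B and C they were 0.0906, 0.548 and 0.192, and in control libraries 0.0684, -0.232 and -0.498. Carmine library C thus ran opposite to carmine libraries A and B. The log2 fold change itself had a coefficient of -0.288 with GC content and -0.0658 with transcript length. These coefficients run over genes, which share their libraries and are not independent replicates. With smooth trends on GC content and length removed in each library, 8 of 15451 genes passed in edgeR, 7 higher and 1 lower, among them CNIH1 (adjusted p = 0.0249), ZFAS1 and BTBD7 (0.0328 each), CEBPB (0.0328), CCNC (0.0377) and SELENOT (0.0416). NDUFB5 had an adjusted p of 0.176 there.

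Without carmine library C, 507 genes were called higher (3.12%) and 178 lower (1.09%) in edgeR, so more genes were called with carmine libraries A and B than with all 3. The 2 remaining carmine libraries had nearly the same GC coefficient, and its part in these calls was not tested. Of the 905 higher and 521 lower genes above, 402 and 61 were among its calls, but both fits hold the other 8 libraries, so this is no independent check. All 16 genes above had an adjusted p under 0.05 there, from 0.00115 for CNIH1 to 0.0445 for PNPLA1.

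**Figure D3:**
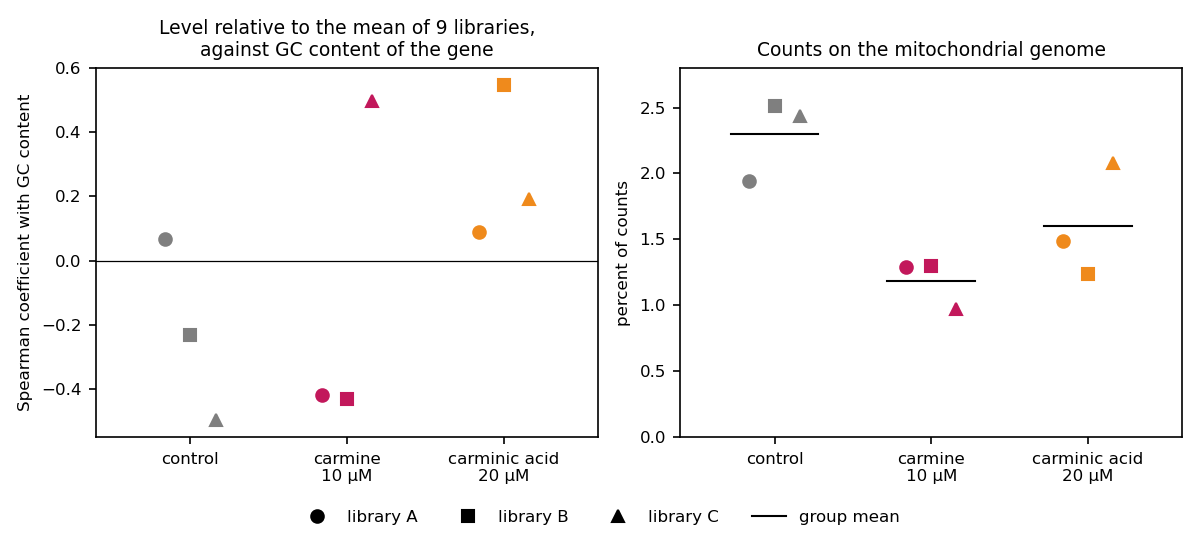
Left, Spearman coefficient between GC content of a gene's transcripts and its level relative to the mean of 9 libraries (y axis), 1 point per library. Right, percent of a library's counts on the mitochondrial genome (y axis, from 0), with lines at group means. Carmine library C lies at 0.498 on the left, apart from A and B, and has the lowest share on the right, 0.974%.

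Transcripts of the mitochondrial genome, which encode core subunits of the respiratory chain and the rRNAs of the mitochondrial ribosome, took 1.291%, 1.296% and 0.974% of counts with carmine and 1.486%, 1.241% and 2.082% with carminic acid. Carminic acid library B lay inside the carmine range, so the groups overlapped. The means were 1.19 ± 0.185% and 1.6 ± 0.433% (SD, n = 3), beside 2.30 ± 0.308% in control. The difference of -0.416 percentage points had p = 0.3 in a two-sided exact permutation test, whose smallest p with 3 against 3 is 0.1, and it was -0.176 percentage points without carminic acid library C. All 15 listed mitochondrial genes lay below 0, at a median log2 fold change of -0.42 (all genes tested: 0.0046). An unadjusted p under 0.05 was found for 6, all lower, beside 3.25% of all genes, and none passed in edgeR, DESeq2 or limma-voom. Their counts are part of the share above, so these genes are no separate check of it. ND5, a complex I subunit, had 561, 476 and 492 CPM with carmine and 629, 565 and 900.0 CPM with carminic acid (-0.45, SE 0.141, edgeR adjusted p = 0.419).

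Of 38 tested nuclear respiratory chain subunits 31 were positive (81.6%, beside 51.1% of all genes tested), with a median log2 fold change of 0.12. The median was 0.03 without carmine library C and 0.08 with GC and length trends removed. None passed in edgeR, 8 had an unadjusted p under 0.05, all higher, beside 5.65% of all genes, and DESeq2 called 2, beside 0.437% of all genes. UQCRQ, a subunit of complex III, had 66.7, 71.1 and 76.9 CPM with carmine and 54.7, 55.8 and 58.4 CPM with carminic acid (0.35, edgeR adjusted p = 0.243). COX11, a copper chaperone for complex IV assembly, had 69.0, 71.4 and 70.6 CPM against 53.7, 50.5 and 58.4 CPM (0.38, adjusted p = 0.243). UQCRQ and COX11 were chosen after their values were seen.

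Families were also defined by gene symbol, after values were seen, and they share many genes with that list. All 17 tested ATP synthase subunits were positive (median 0.12), as were 9 of 10 subunits of complex III (0.14), 26 of 34 of complex I (0.10) and 16 of 21 subunits and assembly factors of complex IV (0.10). Of 75 mitochondrial ribosomal protein genes 69 were positive (0.12) and 15 had an unadjusted p under 0.05, all higher, beside 5.65% of all genes. Among them MRPL52 had 20.7, 25.0 and 23.7 CPM with carmine and 15.9, 17.1 and 16.5 CPM with carminic acid (0.49, edgeR adjusted p = 0.229). DESeq2 called 2 of the 75 mitochondrial ribosomal protein genes, both higher, beside 0.437% of all genes. Mitochondrial import genes were positive in 20 of 24 (0.09, and 0.06 with trends removed). Without carmine library C the medians were 0.03 for mitochondrial import, 0.10 for ATP synthase, 0.04 for complexes I and III, 0.05 for complex IV and 0.07 for mitochondrial ribosomal proteins.

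Cytosolic ribosomal protein genes were positive in 42 of 45 listed members, with a median of 0.11 that was 0.05 without carmine library C. RPLP2, a stalk protein of the large subunit, had 663, 808 and 710.4 CPM with carmine and 565, 616 and 597 CPM with carminic acid (0.29, edgeR adjusted p = 0.366). No cytosolic ribosomal protein gene passed in edgeR, DESeq2 or limma-voom, and 8 of the 45 had an unadjusted p under 0.05, all higher. Proteasome subunits were positive in 31 of 35 (0.08, and 0.05 with trends removed), with 6 under an unadjusted p of 0.05, all higher. The share of all genes with an unadjusted p under 0.05 and a higher level was 5.65%. PSMB1, a subunit of the proteasome core particle, had 157, 186 and 192 CPM with carmine and 147, 148 and 149 CPM with carminic acid (0.27, adjusted p = 0.389).

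**Figure D4:**
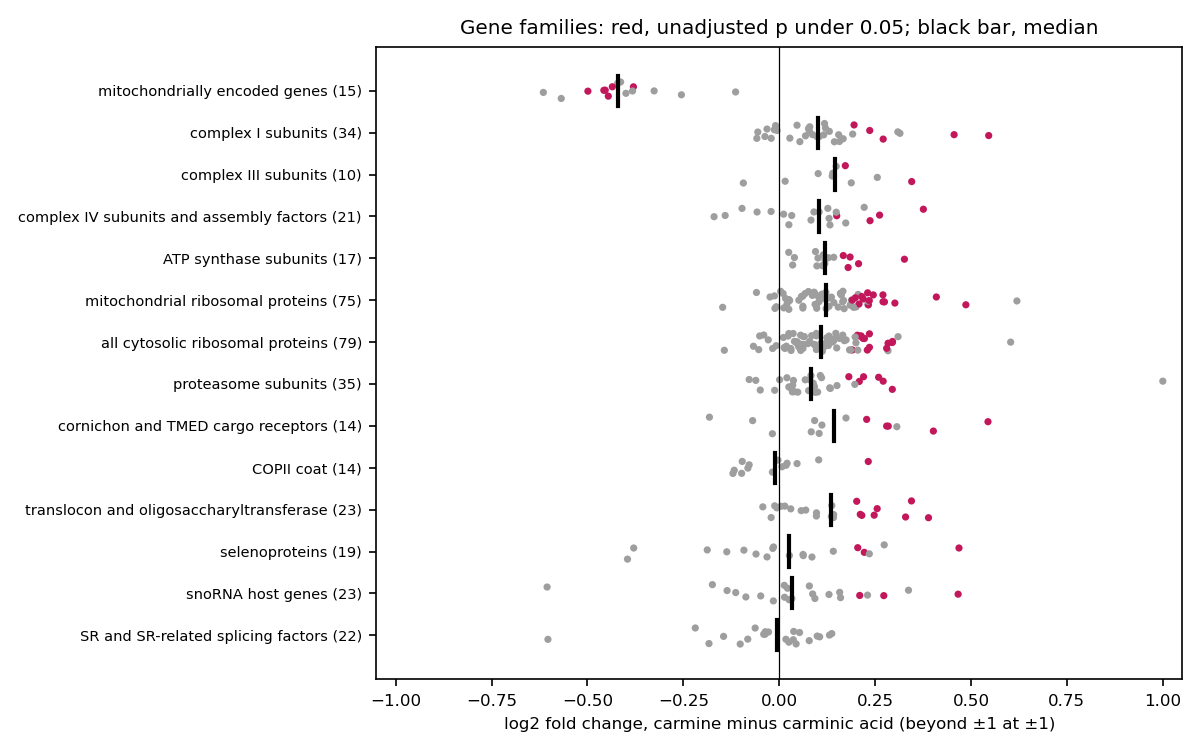
Log2 fold change of carmine against carminic acid (x axis) for each tested gene of 14 groups (y axis, number of genes in brackets), with the median of a group as a black bar and genes with an unadjusted p under 0.05 in red. The 15 mitochondrially encoded genes all lie below 0, and all 17 ATP synthase subunits lie above it. The value of 1 gene lies beyond the axis and is drawn at its limit.

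The family of CNIH1 was examined next, after its values were seen. Cornichon and TMED proteins, both cargo receptors between the endoplasmic reticulum and the Golgi, were positive in 11 of 14 tested genes, beside 51.1% of all genes (median 0.14, and 0.16 without carmine library C). CNIH1, which chose the family, was the 1 called member, and DESeq2 called 3, beside 0.437% of all genes. TMED7 had 105, 104 and 86.6 CPM with carmine, 75.2, 67.9 and 81.3 CPM with carminic acid and 76.7, 80.7 and 91.1 CPM in control (0.40, edgeR adjusted p = 0.290). The translocon and the oligosaccharyltransferase, through which proteins enter the endoplasmic reticulum and receive their first sugars, were positive in 19 of 23 (0.14, and 0.07 with trends removed). An unadjusted p under 0.05 was found for 8, all higher, beside 5.65% of all genes, and DESeq2 called 2, beside 0.437%. MAGT1, an oligosaccharyltransferase subunit, had 201, 207 and 249 CPM with carmine and 169.8, 150.2 and 181 CPM with carminic acid (0.39, adjusted p = 0.287), and OSTC, a further subunit, 127, 136 and 121 CPM and 100.3, 92.3 and 109.9 CPM (0.34, adjusted p = 0.287).

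The COPII coat, which shapes the vesicles that these receptors load, was positive in 6 of 14 genes, with a median of -0.01. Its GTPase gene SAR1B had 224, 229.9 and 200.1 CPM with carmine and 188, 179 and 190.1 CPM with carminic acid (0.23, edgeR adjusted p = 0.407). Folding genes of the same compartment, listed as unfolded protein response, were positive in 10 of 18 (0.01). The chaperone gene HSPA5 had 647, 739 and 675 CPM with carmine and 685, 669 and 714 CPM with carminic acid (-0.01, 95% interval -0.15 to 0.14), and HYOU1, a co-chaperone, 166, 159 and 180.2 CPM against 203, 187 and 184 CPM (-0.18, adjusted p = 0.486). Selenoprotein genes, the family of SELENOT, were positive in 10 of 19 (0.03), and snoRNA host genes, the family of ZFAS1, in 16 of 23 (0.03).

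Brush border and digestion genes were negative in 18 of 25 tested members (median -0.09, and -0.05 with GC and length trends removed). An unadjusted p under 0.05 was found for 3, all lower, beside 3.25% of all genes, and none passed in edgeR or limma-voom while DESeq2 called LCT. HNF4A, a transcription factor of enterocyte identity, had 1053, 1034 and 1061 CPM with carmine and 1136, 1204 and 1209 CPM with carminic acid (-0.17, edgeR adjusted p = 0.479), beside 1141, 1085 and 1074 CPM in control. It was chosen after its values were seen. Groups did not overlap for 4 listed members that were lower and 1 that was higher, beside 6.01% and 7.09% of all genes. Sucrase-isomaltase (SI) overlapped, with 306, 283 and 225 CPM with carmine and 297, 268 and 319 CPM with carminic acid (-0.12, 95% interval -0.33 to 0.09). The intervals were -0.28 to 0.12 for the alkaline phosphatase gene ALPI and -0.27 to 0.06 for the microvillus gene VIL1.

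Junction genes were negative in 13 of 21 (median -0.05, and -0.08 without carmine library C), with 4 under an unadjusted p of 0.05, all lower, beside 3.25% of all genes. The 4 included TJP1, whose level is uncertain, with control libraries from 1.77 to 9.13 CPM. Cingulin (CGN), a tight junction scaffold, had 353, 374 and 393 CPM with carmine and 430.0, 465 and 435 CPM with carminic acid, without overlap (-0.25, SE 0.0703, edgeR adjusted p = 0.389). Endocytosis genes were negative in 21 of 30 (-0.02) and lysosome and autophagy genes in 16 of 27 (-0.05). Of the phosphate, calcium and magnesium genes 10 of 11 were negative (-0.06), and TRPM6, a magnesium channel, had 18.4, 17.6 and 17.6 CPM with carmine and 22.0, 19.1 and 19.5 CPM with carminic acid (-0.18, adjusted p = 0.606). Nutrient transporters had a median of -0.01 and lipid transport genes one of 0.02, with 9 and 10 of 20 positive.

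**Figure D5:**
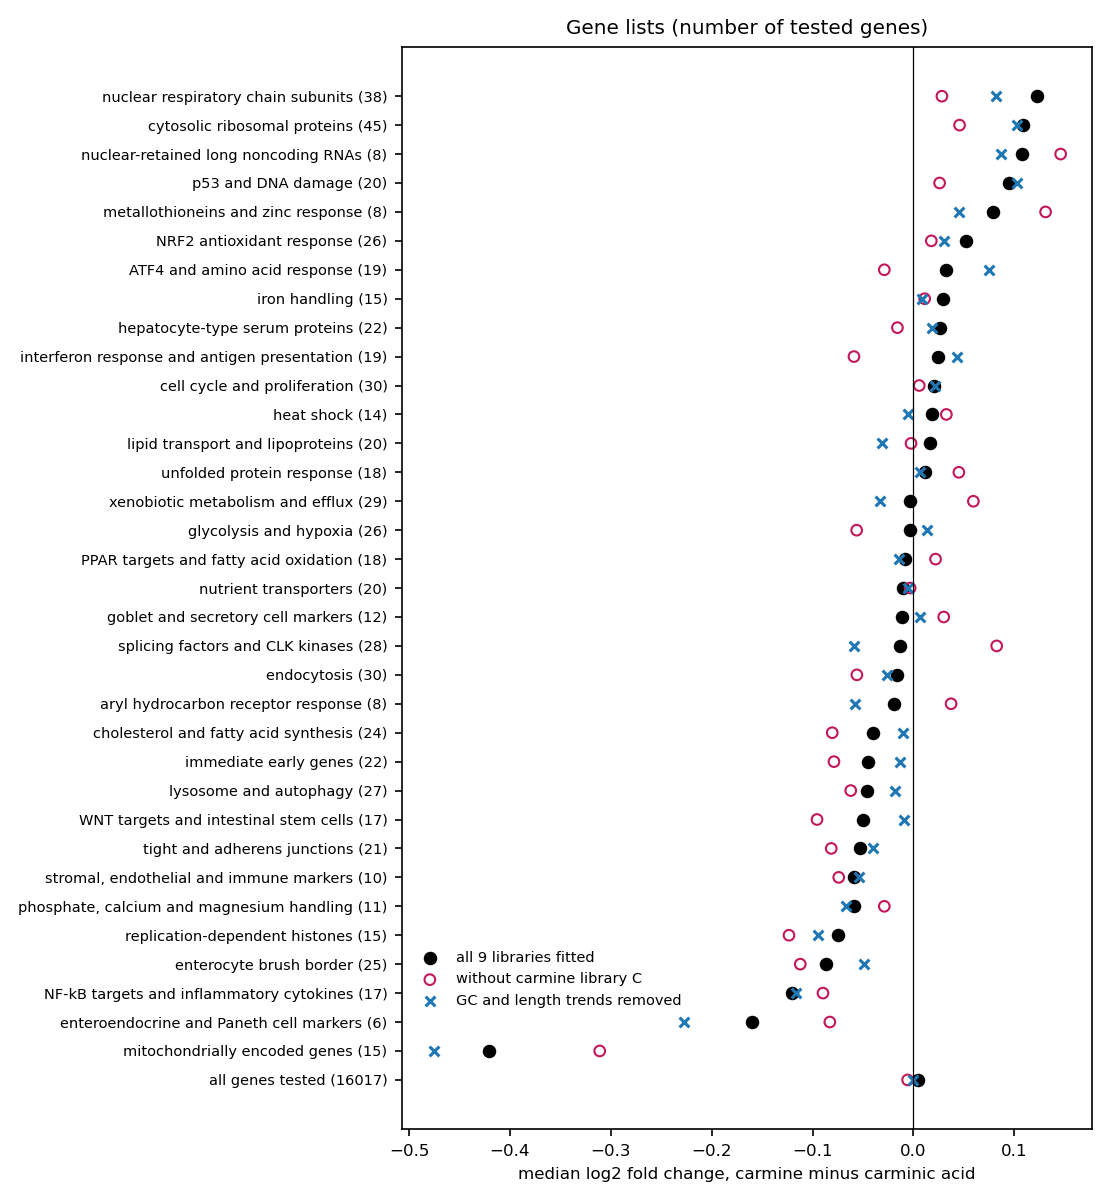
Median log2 fold change of carmine against carminic acid (x axis) for the gene lists and for all genes tested (y axis, number of tested genes in brackets). Filled points are from all 9 libraries, open circles leave out carmine library C, and crosses are from counts with GC and length trends removed. The mitochondrially encoded genes at -0.42 lie far below the other lists, which run from -0.16 to 0.12.

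Genes that answer to dyes, metals and oxidants gave no called difference between the compounds. CYP1A1, the enzyme gene induced through the aryl hydrocarbon receptor, had 7.13, 8.44 and 9.04 CPM with carmine and 9.34, 9.14 and 8.91 CPM with carminic acid, and the groups overlapped (-0.15, 95% interval -0.39 to 0.08, edgeR adjusted p = 0.718). All 6 of these libraries lay above the control libraries at 5.29, 5.74 and 5.396 CPM. The list of aryl hydrocarbon receptor genes was split evenly, 4 positive and 4 negative. HMOX1, the heme oxygenase gene of the oxidant response, had 69.3, 71.2 and 84.5 CPM with carmine and 70.2, 76.7 and 80.8 CPM with carminic acid (-0.02, 95% interval -0.20 to 0.17). NRF2 targets were positive in 16 of 26 (0.05), and their member with the smallest p was ME1, the cytosolic malic enzyme (0.22, adjusted p = 0.450).

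Sensitive markers of zinc and related metals, MT1X and MT2A, encode metallothioneins and were barely expressed. MT1X had 0.549, 0.891 and 0.565 CPM with carmine and 0.473, 0.696 and 0.471 CPM with carminic acid (0.29, 95% interval -0.36 to 0.94), and MT2A had 0.790, 0.641 and 0.401 CPM and 0.508, 0.4999 and 0.416 CPM (0.36, 95% interval -0.31 to 1.03). At these levels a difference of the size of the intervals was not detectable. The zinc exporter SLC30A1 had an interval of -0.22 to 0.11, the transferrin receptor TFRC one of -0.12 to 0.20 and the ferritin chain FTH1 one of -0.16 to 0.14. Iron handling genes were positive in 9 of 15 (0.03) and metallothionein and zinc genes in 5 of 8 (0.08).

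No gene of the stress and growth lists passed in edgeR. In the ATF4 and amino acid list 3 of 19 genes had an unadjusted p under 0.05, and in heat shock 2 of 14, all higher. Among 30 cell cycle genes 2 higher and 1 lower did. Immediate early, WNT and histone lists held 1 such gene each, lower with carmine. Over all genes the shares were 5.65% higher and 3.25% lower. Of p53 and DNA damage genes 16 of 20 were positive (0.09, and 0.03 without carmine library C), none with an unadjusted p under 0.05. CDKN1A, the cell cycle inhibitor induced by p53, had 110.4, 112 and 142 CPM with carmine and 112, 119 and 113 CPM with carminic acid, with carmine library C above the rest (0.08, 95% interval -0.11 to 0.28). ATF4 and amino acid genes were positive in 15 of 19 (0.03), and without carmine library C the median was -0.03. CEBPB, a transcription factor of that response, had 34.3, 32.0 and 47.5 CPM with carmine and 29.7, 31.01 and 27.7 CPM with carminic acid (0.36, edgeR adjusted p = 0.439), again highest in carmine library C. DDIT3, a further factor of that response, had an interval of -0.22 to 0.23.

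Cell cycle genes were positive in 18 of 30 (0.02) and heat shock genes in 8 of 14 (0.02). CDK1, the mitotic kinase, had 114, 136 and 119.5 CPM with carmine and 103, 98.6 and 103 CPM with carminic acid (0.28, edgeR adjusted p = 0.439). HSPA8, a constitutive chaperone, had 1795, 1953 and 1929 CPM and 1649, 1629 and 1724 CPM (0.18, adjusted p = 0.489). Immediate early genes were negative in 13 of 22 (-0.05). EGR2 was near the detection limit, with 0.0859, 0.196 and 0.255 CPM with carmine and 0.473, 0.339 and 0.489 CPM with carminic acid (-1.27, 95% interval -2.14 to -0.41, adjusted p = 0.414), and EGR1 had an interval of -0.42 to 0.01. WNT and stem cell genes were negative in 12 of 17 (-0.05) and histone genes in 10 of 15 (-0.07), whose close copies make single members uncertain.

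Inflammatory genes were negative in 12 of 17 (-0.12), although their member with the smallest p was positive: the chemokine gene CXCL8 had 1.56, 1.76 and 1.22 CPM with carmine, 1.44, 0.678 and 0.688 CPM with carminic acid and 1.15, 1.502 and 2.05 CPM in control (0.70, 95% interval 0.05 to 1.35, edgeR adjusted p = 0.536). Interferon and antigen presentation genes were positive in 11 of 19 (0.02). In xenobiotic metabolism and efflux 14 of 29 were positive (-0.0031). UGT2B17, a glucuronosyltransferase with near-identical relatives and so uncertain, had 19.1, 18.3 and 17.3 CPM with carmine and 14.4, 12.6 and 15.1 CPM with carminic acid (0.38, adjusted p = 0.300). The efflux pumps ABCB1 and ABCG2 had intervals of -0.22 to 0.13 and -0.29 to 0.26.

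In metabolism, 14 of 24 cholesterol and fatty acid synthesis genes were negative (-0.04), as were 14 of 26 glycolysis and hypoxia genes (-0.0031) and 11 of 18 PPAR targets (-0.0088). Their members with the smallest p were positive: IDI1, an isomerase of the mevalonate pathway (0.25), BNIP3, a mitophagy receptor (0.19), and ACADM, which oxidises medium-chain fatty acids (0.21), with edgeR adjusted p of 0.450, 0.475 and 0.486. Splicing factors and CLK kinases were split evenly at 14 of 28 positive (-0.01), and the median was 0.08 without carmine library C. LUC7L3, a splicing factor, had 235, 217 and 186 CPM with carmine and 206, 223 and 197 CPM with carminic acid (0.03, 95% interval -0.19 to 0.24), all below the control libraries at 309, 354 and 274 CPM. Long noncoding RNAs retained in the nucleus were positive in 7 of 8 (0.11), none with an unadjusted p under 0.05.

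Further genes that lay below control with both dyes were the neuronal gene NNAT and PPFIA4, a liprin scaffold. PPFIA4 had 46.3, 39.8 and 44.4 CPM with carmine, 46.8, 54.8 and 45.3 CPM with carminic acid and 70.6, 68.6 and 58.5 CPM in control, and the dyes overlapped (-0.17, 95% interval -0.38 to 0.04). NNAT had 2.18, 1.67 and 1.42 CPM, 2.22, 2.43 and 2.06 CPM and 4.50, 3.90 and 3.40 CPM in the same order of groups (-0.35, 95% interval -0.75 to 0.05).

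No marker of another cell type passed in edgeR, DESeq2 or limma-voom. Goblet markers summed to 25.4 to 37.1 CPM with carmine and 24.7 to 26.3 CPM with carminic acid, and TFF3, a mucosal trefoil peptide, had 17.3, 16.8 and 25.97 CPM and 14.8, 14.5 and 16.3 CPM (0.40, edgeR adjusted p = 0.537), highest in carmine library C. Enteroendocrine and Paneth genes had a median of -0.16 over 6 tested genes, goblet and secretory genes one of -0.01 over 12, and stromal, endothelial and immune genes one of -0.06 over 10. Hepatocyte-type serum proteins, which Caco-2 cells make, were positive in 13 of 22 (0.03), with TTR, the transthyretin gene, at 114, 99.0 and 114 CPM with carmine and 88.7, 93.7 and 95.3 CPM with carminic acid (0.23, adjusted p = 0.412). Their part in the other differences was not tested.

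Over the 665 different genes of the lists that were tested, none passed in edgeR, 4 passed in DESeq2 and 1 in limma-voom. Over all 16017 genes tested these counts were 1, 77 and 12. An unadjusted p under 0.05 was found for 43 higher and 24 lower ones, 10.1% against 8.9% of all genes. The precision of the comparison can be read from the intervals. For the 13238 genes whose average level reached a log2 CPM of 0, the 95% interval of the log2 fold change extended 0.218 to either side of the value at the median gene. For 11840 of them (89.4%) the interval lay wholly within a 1.5-fold difference in either direction, and for 13045 (98.5%) within a 2-fold difference. These intervals are per gene and cover the spread between the libraries at hand.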

How the data were processed

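Raw read counts per gene, not normalized, were deposited by the authors, 1 file per library, with NCBI Gene IDs. Per the submitters' processing notes, the tools were FastQC, HISAT and featureCounts (no versions) and the build was hg38. Library kit, strand setting and treatment of reads with several matches: not given in the sources used here. A file listed 28395 genes, and 27745 were matched to symbols through the GRCh38.p14 table. Genes without a symbol took 0.0432% of counts.

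Counts were fitted in R 4.3.3 with edgeR 4.0.16: filterByExpr by group, TMM scaling, 1 robust quasi-likelihood fit of all 9 libraries without covariates, the contrast of carmine minus carminic acid tested two-sided, and Benjamini-Hochberg adjustment over 16017 genes at 0.05. The biological coefficient of variation was 10.9%. Each pair of libraries within a group differed by a chi-square per degree of freedom of 9.51 or more, so none was counted as a copy. The scripts were tested on simulated data with less spread than these libraries and no GC trends, which checks the code alone.

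Named genes were, per direction, up to 12 called genes by size, filled up to 8 by smallest p where the mean log2 CPM reached 0 and the groups did not overlap, from each of 34 lists the gene with the lowest p (747 entries, all matched), and a set given whatever the test. The members, lists and this rule were chosen with earlier results of these data known. Lists are described by counts and medians, with no test. The mitochondrial share was compared by an exact permutation test. Alternatives used RLE factors, library size, other filters, DESeq2 1.42.0, limma-voom 3.58.1 with quality weights, non-robust estimation, the 6 compared libraries, the letter as a block, GC and length trends as offsets, no mitochondrial genes, stricter thresholds and 1 library fewer. Letters were not treated as pairs in the main fit. Correlations of deviations of same-letter carmine and carminic acid libraries were 0.095, -0.1 and -0.038, without the control libraries. Whether samples with the same letter were handled together was not tested. No protein sequences were used here.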

Additional observations from a re-analysis of the deposited data

How the results depend on the processing

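The count of called genes was 1, and it was 2 with RLE factors, with library size alone and with mitochondrial genes removed, 9 with no filter beyond 1 count, 8 with trends removed, 77 in DESeq2 and 12 in limma-voom. It was 0 with non-robust estimation, at an adjusted p of 0.01 and with an added absolute log2 fold change of 1, where 1449, 1426 and 1426 genes had an unadjusted p under 0.05. It ran from 0 to 685 with 1 library left out. With the replicate block it was 0 (CNIH1: edgeR adjusted p = 0.0928, and 1261 genes with an unadjusted p under 0.05), and 14 with the replicate block with trends removed. The cause of these shifts was not tested. CNIH1 also lost its call with non-robust estimation (0.0506) and with only the 6 compared libraries (0.101), where 1 other gene, lower with carmine, was called.

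Of 1380 log2 fold changes of named genes under alternatives, 1262 kept sign and side of the threshold, 66 gained a call, 9 lost one (all CNIH1) and 43 changed sign, all of them uncalled and near 0. Outside left-out libraries these were DDIT3 (-0.0014 with library size alone, -0.0048 in limma-voom, -0.0098 with trends removed, -0.0128 with block and trends), FTH1 (0.0023 with no filter, 0.0149, 0.0068 and 0.0050 in the same 3), HSPA5 (0.0032 with no filter, 0.0248, 0.0286 and 0.0251), ABCG2 (0.0480 in limma-voom), and, with trends removed without and with the block, HMOX1 (0.0193 and 0.021), TFRC (-0.0369 and -0.0370) and LUC7L3 (-0.0434 and -0.0400). With 1 library left out the ranges were -0.0982 to 0.0350 for ABCB1, -0.0910 to 0.0921 for ABCG2, -0.0331 to 0.150 for CDKN1A, -0.0565 to 0.111 for DDIT3, -0.0417 to 0.0305 for FTH1, -0.102 to 0.0381 for HMOX1, -0.0596 to 0.0366 for HSPA5, -0.0514 to 0.124 for LUC7L3, -0.212 to 0.0085 for SI and -0.0946 to 0.0194 for SLC30A1.

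Of 34 lists, 14 had a positive median, and 14 to 20 under alternatives. The sign held under all of them for 16 lists, among them the mitochondrially encoded genes (-0.57 to -0.18), nuclear respiratory chain (0.03 to 0.18), ribosomal proteins (0.05 to 0.18) and brush border (-0.13 to -0.04). The difference in mitochondrial share ran from -0.597 to -0.176 percentage points with 1 library left out.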

Other observations

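Large fold changes went with large standard errors. Of the genes whose average level reached a log2 CPM of 0, 24 had an absolute log2 fold change over 1.5, 15 of them lower with carmine and 9 higher, and none passed in edgeR. Their median standard error was 0.878, beside 0.102 for all genes at that level. Groups did not overlap for 10 of the 24, beside 13.1% of all genes tested. The 24 were chosen by the size of their fold change, which by itself favours large standard errors and groups without overlap. The examples below were chosen after their values were seen. YTHDC1, a reader of N6-methyladenosine in RNA, had 3.43, 1.59 and 1.11 CPM with carmine, 2.91, 22.8 and 15.4 CPM with carminic acid and 9.76, 10.4 and 8.01 CPM in control (-2.74, edgeR adjusted p = 0.458). VARS1, the valyl-tRNA synthetase, had 3.79, 5.81 and 4.25 CPM with carmine, 0.315, 0.821 and 1.83 CPM with carminic acid and 0.179, 0.336 and 1.10 CPM in control (2.22, adjusted p = 0.465), with no overlap. PSMB3, a proteasome core subunit, had 2.18, 2.07 and 16.8 CPM with carmine and 1.70, 1.89 and 1.56 CPM with carminic acid, so a single library gave its value of 2.03. TJP1, the tight junction scaffold ZO-1, had 2.21, 3.83 and 1.64 CPM with carmine, 11.6, 6.18 and 5.99 CPM with carminic acid and 1.77, 3.36 and 9.13 CPM in control (-1.63, adjusted p = 0.554). Such spread between libraries of 1 group was not tested for its source. The handling of reads with several matches is not stated, so the levels of these examples are uncertain.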
